A study of Homo sapiens with 90 samples.

Results

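PC9, an established human lung adenocarcinoma line that depends on a mutant epidermal growth factor receptor, was treated with THZ1 alone and compared with its vehicle. The comparison takes in 6 of the 90 libraries of the study: 3 from cells given THZ1 at 100 nM for 48 h and 3 from cells given 0.1% DMSO for 48 h, labelled replicates 2, 3 and 4 in each group, with every gene of the expression table. The study as a whole profiled 6 cancer lines in 5 arms each, with a kinase inhibitor matched to each line's driver, THZ1, their combination and the vehicle. The other 9 PC9 libraries were treated with erlotinib for 48 h or 7 days or with erlotinib plus THZ1. They entered the same fit and so bore on the spread between libraries, the choice of genes tested and the scaling. With them 15311 genes were tested, against 14366 with the 6 libraries alone. For a comparison between lines the THZ1 and DMSO libraries of 3 other lines were used, each line with 3 libraries per group at 48 h: RT112 bladder cells at the same 100 nM of THZ1, A549 lung cells at 150 nM and H3122 lung cells at 50 nM. The labels do not say whether libraries came from separate cultures, so the p-values measure the spread between these libraries, which may be technical. No spike-in is mentioned, so each level is a share of a library's RNA and a change in total RNA per cell cannot be seen.

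THZ1 binds covalently to CDK7, the kinase of the general transcription factor TFIIH, and also acts on CDK12 and CDK13. CDK7 phosphorylates the tail of the largest subunit of RNA polymerase II as transcription starts and also activates cell cycle kinases, while CDK12 and CDK13 act during elongation. Short-lived transcripts and genes driven by large enhancers are known to be sensitive to such inhibitors, and long genes, many of them for DNA repair, to loss of CDK12.

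The 3 DMSO libraries held from 11112285 to 11656273 expected counts and the 3 THZ1 libraries from 10792440 to 11958232, so counting error was small for all but the rarest transcripts. One vehicle library stood apart: DMSO replicate 4 had 113 of 11337 genes at least 1.5 times above both other DMSO libraries, against 4 to 13 genes for every other library of these 6 among its own group. Of the 37 immediate-early genes described below 35 were higher in it than in both other vehicle libraries, and it also had the largest share of mitochondrial reads, 3.93% against 3.34 and 3.46% in the other DMSO libraries. The main results that rest on such genes are given with and without it. Markers set for the labelled tissue were mostly missing. Of 20 lung epithelial markers 7 reached a mean of 1 counts-per-million (CPM, with library sizes scaled by TMM, the unit of all levels given here), NKX2-1 stayed at or under 0.44 CPM in every library, and SFTPA1, SFTPA2 and SFTPC were at 0, while LPCAT1 and MUC1 were present. Among markers of other cells, the melanocyte genes TYR and TYRP1 and the blood genes CD3D, MS4A1 and HBB were at 0, while MITF, PMEL, COL1A1, VWF, CDH5 and ACTA2 reached 1 CPM. Of 7 urothelial markers none was at 0 and 4 (UPK2, UPK3B, GATA3 and PPARG) reached 1 CPM, with a sum of 178 to 202 CPM under DMSO and 121 to 129 CPM under THZ1. Melanocyte markers summed to 37.4 to 38.3 and 33.5 to 37.8 CPM, and stromal markers to 36.6 to 55.8 and 43.2 to 47.9 CPM. The summed lung markers ran from 287 to 315 CPM under DMSO and from 247 to 257 CPM under THZ1, the summed blood markers, nearly all of it CD68, from 40.1 to 40.9 and from 45.7 to 47.1 CPM, and the part of other cells in the results was not tested.

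THZ1 shifted many genes by small amounts. Of 15311 genes tested, 8283 (54.1%) were called at an adjusted p under 0.05 by edgeR's quasi-likelihood test with Benjamini-Hochberg adjustment, 4040 (26.4%) higher and 4243 (27.7%) lower. The median size of a called change was 0.42 on the log2 scale. A change of at least 2-fold was called upward in 431 genes (2.81%) and downward in 565 genes (3.69%). The median over all genes tested was -0.01. The 3 libraries of each group did not overlap for 4502 genes (29.4%) that were higher and 4643 (30.3%) that were lower under THZ1. At an unadjusted p under 0.05 there were 8931 genes. Counts of gene lists below are to be read against these shares. Where a list below has no member called by edgeR in a direction, the count was also 0 at an unadjusted p under 0.05 and with DESeq2, except that 1 TFIIH gene was lower at an unadjusted p. All log2 values are THZ1 minus DMSO.

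The largest rises among genes with at least 5 CPM included secreted and signalling proteins. GAL, the neuropeptide galanin, stood at 3.33, 4.14 and 3.87 CPM in DMSO replicates 2, 3 and 4 and at 26.7, 23.2 and 27.6 CPM in the same THZ1 replicates (log2 2.77 ± 0.13 (SE), adjusted p = 2.26e-21). The groups were far apart, as they were for G0S2, an inhibitor of triglyceride breakdown, which went from 0.684, 0.845 and 1.06 to 5.25, 5.05 and 6.28 CPM (log2 2.67 ± 0.28 (SE), adjusted p = 1.36e-10). MARCHF4, a membrane-bound ubiquitin ligase, was the most abundant of the 12 named rises, at 23.1, 23.9 and 23.7 CPM under DMSO and 106, 104 and 102 CPM under THZ1. The decoy interleukin receptor IL1R2 (log2 2.50), the metastasis suppressor peptide gene KISS1 (2.11), the cyclic nucleotide phosphodiesterase PDE2A (2.17), the protease inhibitor SERPINI1 (2.38) and the non-coding RNA LINC00941 (2.32) also rose, each to between 4.79 and 12.9 CPM. The histone H2BC11 is described below, and the other 3 of the 12 named rises are less certain: HIST2H2AA3 has a near-identical copy, RNASEK-C17orf49 is a readthrough of neighbouring genes, and SNHG9 is a very short transcript (log2 2.77, 2.67 and 2.96).

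The deepest falls included a stress regulator, a detoxifying enzyme and chemokines. NUPR1, a small chromatin protein induced by stress, fell from 10.1, 9.89 and 9.67 to 1.38, 1.65 and 0.628 CPM (log2 -3.03 ± 0.20 (SE), adjusted p = 2.4e-15). ALDH1A1, an aldehyde dehydrogenase often used as a marker of drug-tolerant and stem-like tumour cells, fell from 27.2, 32.2 and 33.7 to 3.87, 5.92 and 5.26 CPM (log2 -2.63 ± 0.11 (SE), adjusted p = 5.37e-23). Neither gene had a vehicle library apart from the others, in contrast with CXCL8, a neutrophil chemokine at 2.39, 1.61 and 18.2 CPM under DMSO and 0.602, 0.696 and 0.628 CPM under THZ1. Its log2 change of -3.50 became -1.62 without DMSO replicate 4 (edgeR adjusted p = 0.0119 and 0.00176), and it was not called when the 6 libraries were fitted alone. PTGS2, the inducible prostaglandin synthase, was likewise highest in DMSO replicate 4 (21.6, 18.9 and 57.6 CPM against 6.45, 6.53 and 7.69 CPM, log2 -2.23, -1.55 without that library). Its call was not lost without that library or with the 6 libraries alone. The small GTPase gene RHOV lost its call without DMSO replicate 4 (edgeR adjusted p = 0.0259 with and 0.149 without) and without any one THZ1 library. ACTBL2, RPL9P7 and UGT1A4 also met the rule for large falls, but the first is close to other actin genes, the second is a ribosomal protein pseudogene and the third shares exons with its neighbours, so reads may be split between copies.

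**Figure D1:**
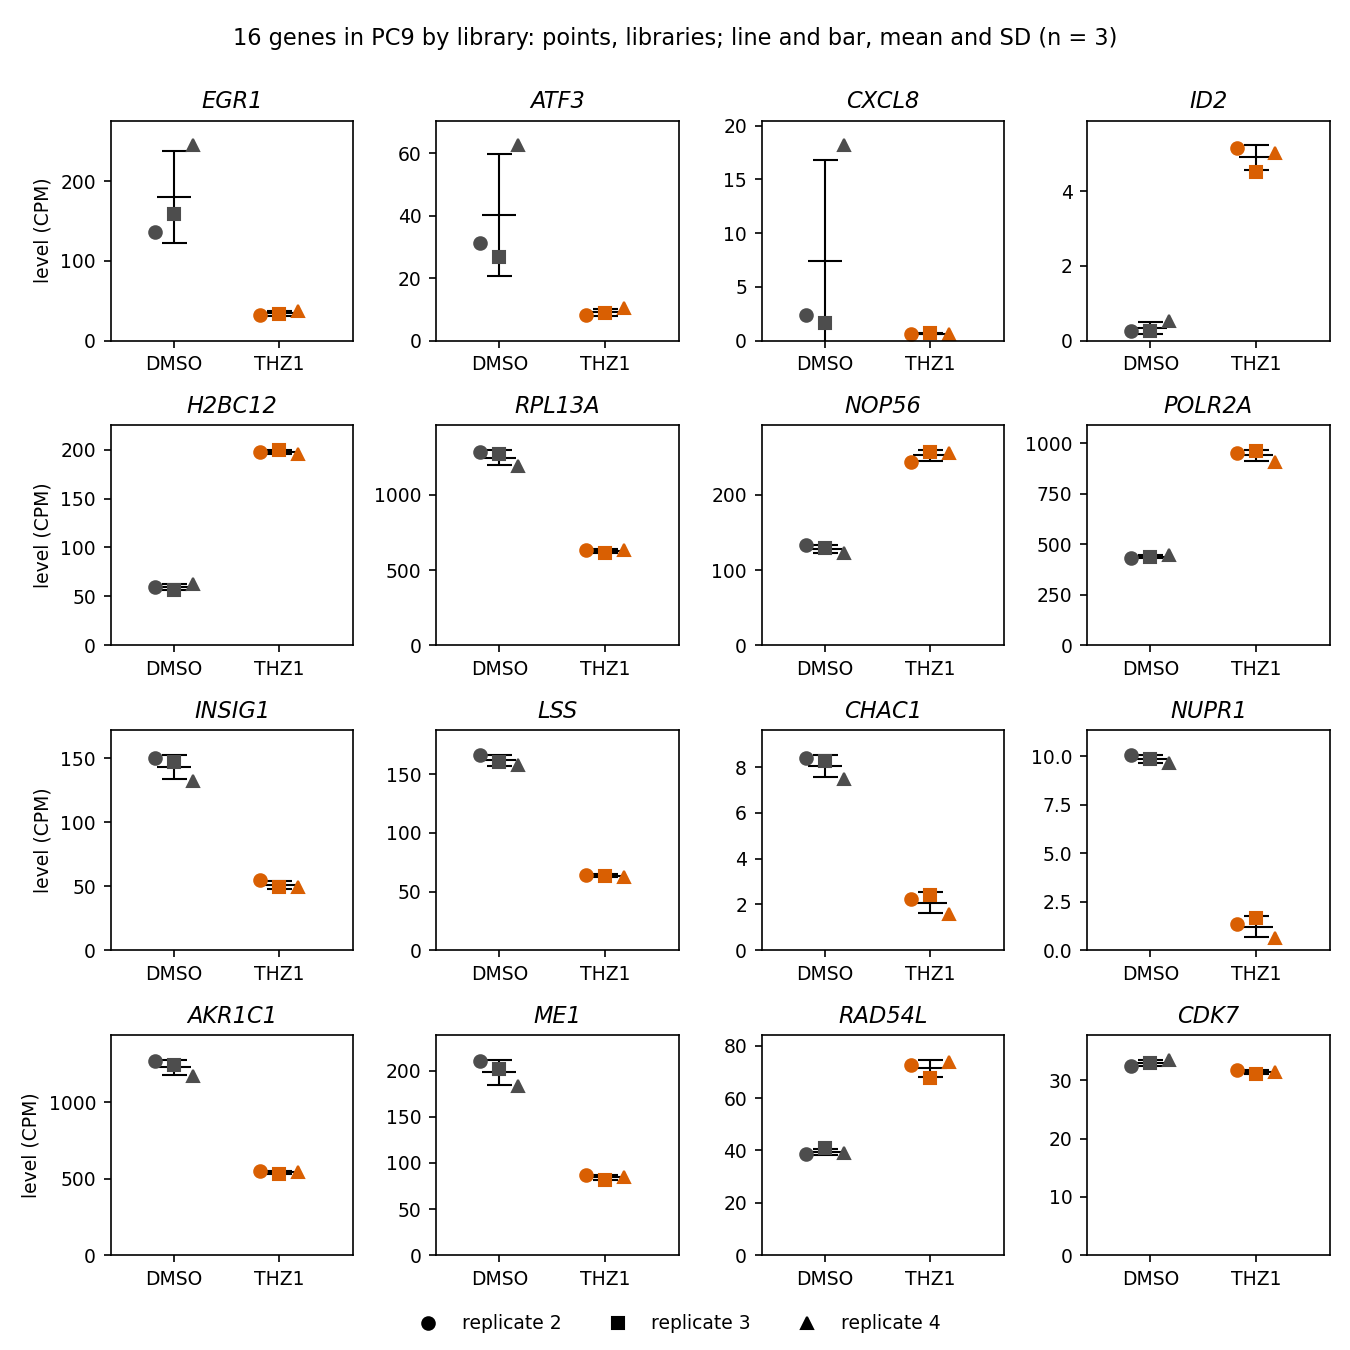
Level (CPM, linear axis from 0) of 16 genes in the 3 DMSO and 3 THZ1 libraries of PC9; points are libraries, the cross line and bar the mean and SD (n = 3; the lower end of the CXCL8 bar under DMSO is off the axis). The groups do not overlap in any of the 16 panels, though for CDK7 they are close, and DMSO replicate 4 lies well above the other vehicle libraries for EGR1, ATF3 and CXCL8.

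The kinases that THZ1 binds kept nearly the same transcript levels, while the enzyme they act on rose. CDK7 was at 32.6, 33.1 and 33.6 CPM under DMSO and 31.7, 31.1 and 31.5 CPM under THZ1, a difference that was not called (log2 -0.07 ± 0.06 (SE), adjusted p = 0.344). CDK13 was not called either (log2 -0.03, adjusted p = 0.577), and CDK12 rose slightly, from 137, 137 and 133 to 157, 153 and 157 CPM (log2 0.20, adjusted p = 3.8e-05). EGFR, the driver of this line, was not called, at 774, 779 and 806 CPM under DMSO and 779, 780.4 and 793 CPM under THZ1 (log2 -0.00, adjusted p = 0.926).

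POLR2A, which encodes the largest subunit of RNA polymerase II and carries the tail that CDK7 phosphorylates, rose in share of reads, from 434, 437 and 446 CPM under DMSO to 951, 958 and 908 CPM under THZ1 (log2 1.10 ± 0.03 (SE), adjusted p = 1.81e-27). Of the 12 subunits of the enzyme tested, 9 rose and 1, POLR2H, named after its value was seen, fell, with a median log2 change of 0.25. The other named subunits rose less: POLR2D (log2 0.45), POLR2F (log2 0.39), POLR2C (log2 0.32) and POLR2I (log2 0.29). Of 26 transcription kinases, their cyclins and elongation regulators 13 rose and 4 fell. The rises included the elongation factor ELL (log2 0.67), SUPT5H, a subunit of the pausing factor DSIF (0.57), CCNK, the cyclin of CDK12 and CDK13 (0.47), and MEPCE, which caps the 7SK RNA (0.43). Of the 6 tested core subunits of TFIIH, ERCC3 rose (log2 0.21), GTF2H1 (log2 0.11) (adjusted p = 0.0487, not called without DMSO replicate 4, where it was 0.183, nor without DMSO replicate 3 or THZ1 replicate 2 or 3), and 4 were not called.

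Immediate-early genes, whose short-lived transcripts are switched on within minutes of a stimulus, had the lowest median of the pathway lists with all 6 libraries, a rank that was lost without DMSO replicate 4. Of 37 members 24 fell and 4 rose, 19 fell at least 2-fold, and the median was -1.17. EGR1, a zinc finger factor downstream of growth factor signalling, was at 136, 159 and 245 CPM in the DMSO libraries and 31.6, 33.1 and 37.4 CPM in the THZ1 libraries (log2 -2.40 ± 0.48 (SE), adjusted p = 0.00138). The stress-induced factor ATF3 went from 31.4, 26.8 and 62.7 to 8.09, 8.70 and 10.3 CPM (log2 -2.15) and the phosphatase DUSP1 from 109, 95.9 and 248 to 36.4, 32.9 and 33.7 CPM (log2 -2.14). DMSO replicate 4 was the highest library for all 3 genes. The summed level of the list was 4536 and 4550 CPM in DMSO replicates 2 and 3, 6789 CPM in replicate 4 and 2955 to 3109 CPM under THZ1. Without DMSO replicate 4 the list's median was -0.71, above those of the cholesterol (-0.81) and NRF2 (-0.78) genes, with 20 members lower and 4 higher, and EGR1, ATF3 and DUSP1 stood at log2 -2.11, -1.68 and -1.58 (edgeR adjusted p = 0.00496, 0.000598 and 0.0131).

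The 4 members that rose were ID2, GADD45B, FOSL1 and SGK1, the last 2 named after their values were seen. ID2, an inhibitor of basic helix-loop-helix factors, was at 0.256, 0.254 and 0.528 CPM under DMSO and 5.16, 4.52 and 5.02 CPM under THZ1 (log2 3.79 ± 0.29 (SE), adjusted p = 2.77e-14), near the limit of counting in the vehicle and low under THZ1. GADD45B, a stress sensor of the NF-kB and growth arrest pathways, went from 8.03, 7.69 and 9.06 to 30.4, 31.1 and 35.5 CPM (log2 1.97 ± 0.09 (SE), adjusted p = 6.19e-21). Without DMSO replicate 4 both also rose (log2 4.21 and 2.04). The other relatives of ID2 on the list, named here after their values were seen, fell: ID1 (log2 -1.95) from 129, 133 and 119 CPM, ID3 (log2 -1.84, -1.55 without DMSO replicate 4) from 65.5, 61.9 and 107 CPM and ID4 (log2 -1.43) from 83.1, 82.3 and 90.7 CPM.

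Genes of growth factor signalling and its feedback moved in both directions. Of 25 genes of MAPK pathway output 9 rose and 10 fell. MYC, the growth regulator with a short-lived transcript, fell from 258, 257 and 412 to 172, 157 and 156 CPM (log2 -0.93 ± 0.25 (SE), adjusted p = 0.00824). Without DMSO replicate 4 its log2 change was -0.67 (adjusted p = 0.0343). The feedback phosphatase DUSP5 was called with all libraries (log2 -1.27, adjusted p = 0.0295) and not without that library (log2 -0.82, adjusted p = 0.131) or without any one THZ1 library. The median of this list was -0.10 with it and 0.05 without it. HMGA2, a chromatin architecture protein of embryonic and tumour cells, rose from 31.4, 27.1 and 28.1 to 69.0, 69.4 and 76.3 CPM (log2 1.31 ± 0.07 (SE), adjusted p = 1.34e-19), and the urokinase receptor PLAUR rose (log2 0.93).

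Among 14 ERBB receptors, ligands and feedback genes 7 fell and 1, the ligand TGFA, named after its value was seen, rose. ERRFI1, an inhibitor that binds the EGFR kinase, fell from 93.0, 82.9 and 106 to 47.4, 51.4 and 52.5 CPM (log2 -0.90) and the receptor ERBB3 from 137, 135 and 144 to 91.0, 95.1 and 89.8 CPM (log2 -0.59). The ligands BTC, EREG and NRG1 fell (log2 -0.63, -0.83 and -1.31), the last 2 from under 5 CPM with overlapping libraries, and EREG was not called without DMSO replicate 4 (adjusted p = 0.294) or THZ1 replicate 3, nor NRG1 without DMSO replicate 3 or THZ1 replicate 4. A list of other receptor kinases with ligands and binding proteins split, with 7 of 25 higher and 13 lower. FGFR1, a fibroblast growth factor receptor, rose from 0.598, 0.761 and 0.352 to 3.35, 3.31 and 2.43 CPM (log2 2.38 ± 0.31 (SE), adjusted p = 1.94e-08), a low level in all 6 libraries. IGFBP4, which binds insulin-like growth factors, rose from 191, 204 and 188 to 505, 473 and 480.0 CPM, and FGFBP1, a carrier of fibroblast growth factors, fell from 17.7, 16.5 and 19.3 to 4.64, 3.92 and 5.26 CPM (log2 1.32 and -1.95). GAS6, the ligand of AXL, fell (log2 -0.77).

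FOXO target genes, which growth factor signalling through AKT is known to repress, fell: 14 of 17 were lower and none higher, and the median was -0.73. PIK3IP1, a negative regulator of PI3-kinase, went from 14.3, 13.8 and 14.8 to 5.59, 7.13 and 5.96 CPM (log2 -1.20 ± 0.11 (SE), adjusted p = 5.37e-12). KLHL24, a substrate adaptor of a ubiquitin ligase, went from 16.2, 15.05 and 17.9 to 7.83, 7.40 and 6.04 CPM (log2 -1.21). The largest falls, TRIB1, KLF9 and CITED2 (log2 -1.69, -1.62 and -1.44), were at their highest in DMSO replicate 4 and fell (log2 -1.14, -1.38 and -1.13) without it. The list's count was 12 lower without it, with a median of -0.60.

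Histone genes rose. Of 20 tested 13 were higher and 1 lower (H2AZ2, a variant made outside replication, named after its value was seen), 6 at least 2-fold higher, with a median of 0.53. H2BC12, a histone H2B gene, was at 59.9, 56.8 and 62.3 CPM under DMSO and 198, 199.6 and 195 CPM under THZ1 (log2 1.73 ± 0.05 (SE), adjusted p = 2.88e-29), and the rarer H2BC11 at 1.37, 1.35 and 1.41 and 7.91, 7.83 and 7.85 CPM (log2 2.51 ± 0.22 (SE), adjusted p = 6.09e-13). The groups were well separated for both, and H1-2, a linker histone, went from 12.7, 12.8 and 13.7 to 27.6, 28.7 and 27.9 CPM (log2 1.10). Replication-dependent histone transcripts normally end in a stem-loop without a poly(A) tail, so a library made from polyadenylated RNA would hold only the tailed share of them. The histone share of reads ran from 0.171 to 0.179% in the DMSO libraries and from 0.214 to 0.221% in the THZ1 libraries. The compact promoter of this family is shown for 3 of the 5 named members because they share it, for the 90 bases before the start in RefSeq on GRCh38.p14, with the CCAAT box (CCAAT) and the TATA box (TATAAA) in capitals, H2BC12 at chr6:27146859-27146948 (minus strand), H2BC11 at chr6:27132796-27132885 (minus strand) and H2BC21 at chr1:149886683-149886772 (minus strand):
H2BC12: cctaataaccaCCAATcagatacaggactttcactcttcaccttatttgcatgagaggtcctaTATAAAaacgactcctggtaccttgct
H2BC11: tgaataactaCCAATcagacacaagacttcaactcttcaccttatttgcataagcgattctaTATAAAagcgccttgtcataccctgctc
H2BC21: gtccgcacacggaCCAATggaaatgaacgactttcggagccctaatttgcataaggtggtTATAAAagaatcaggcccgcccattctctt
Searched on both strands from 250 bases before to 50 after the start, CCAAT was found in 16 of 18 histone promoters that could be matched (88.9%) and TATAAA in 12 (66.7%), against 36.3 and 5.85% of all 11174 tested genes with a promoter in the table. Of all 654 tested genes with a TATA box in this window 178 rose (27.2%) and 194 fell (29.7%), against 28.1 and 29.1% of all 11174.

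Genes for the protein-making machinery split into the ribosome itself, which fell, and the machinery that builds it, which rose. Many ribosomal protein and translation factor transcripts begin with a run of pyrimidines, the terminal oligopyrimidine or TOP motif, which ties their translation and stability to growth signals. Of 79 cytosolic ribosomal protein genes 69 fell and 2 rose (RPS26 and FAU, named after their values were seen), with a median of -0.50, and together they made up 4.13 to 4.40% of the reads of the DMSO libraries and 3.12 to 3.19% of those of the THZ1 libraries. RPL13A was at 1282, 1269 and 1188 CPM under DMSO and 633, 611 and 634 CPM under THZ1 (log2 -0.99 ± 0.04 (SE), adjusted p = 7.38e-25). RPS3A, RPS3, RPS6 and RPS27 fell by between 0.84 and 0.86 on the log2 scale. None of the 69 fell as far as 2-fold. Ribosomal protein genes have many pseudogenes, so shared reads may blur the values of single members.

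Of 31 translation factors 21 fell and 6 rose, with a median of -0.26. EEF1A1, the elongation factor that brings aminoacyl-tRNA to the ribosome and the most abundant transcript of the vehicle libraries, fell from 11269, 11213 and 10363 to 5528, 5467 and 5498 CPM (log2 -0.99 ± 0.03 (SE), adjusted p = 5.83e-27). TPT1, a growth-related protein, fell (log2 -0.90), as did EIF4B, a cofactor of the cap-bound helicase (log2 -0.83). RNAs that host small nucleolar RNAs, several of which are also TOP transcripts, fell in 9 of 17 cases and rose in 4. GAS5 fell from 58.6, 55.0 and 54.5 to 31.0, 32.0 and 31.1 CPM and SNHG29 from 309.6, 305 and 279 to 161, 153 and 161 CPM, but SNHG15 rose from 6.75, 6.43 and 7.83 to 19.9, 23.3 and 19.7 CPM.

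The starts of these genes are shown because falls were more frequent among genes that share them. From RefSeq on GRCh38.p14, 20 bases before and 20 from the annotated start, with the pyrimidine run that opens the transcript in capitals, the 8 fallen members named above that have such a start read as follows:
RPL13A: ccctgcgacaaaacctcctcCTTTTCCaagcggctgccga
RPS3A: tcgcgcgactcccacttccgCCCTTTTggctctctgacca
RPS3: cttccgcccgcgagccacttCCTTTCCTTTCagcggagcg
RPS6: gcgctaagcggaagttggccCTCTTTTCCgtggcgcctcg
RPS27: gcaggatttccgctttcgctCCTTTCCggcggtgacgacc
EEF1A1: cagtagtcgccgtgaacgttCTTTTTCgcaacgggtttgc
TPT1: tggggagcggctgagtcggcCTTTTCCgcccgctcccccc
EIF4B: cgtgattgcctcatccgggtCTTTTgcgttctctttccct
They lie at chr19:49487588-49487627 (plus strand), chr4:151099608-151099647 (plus strand), chr11:75399498-75399537 (plus strand), chr9:19380217-19380256 (minus strand), chr1:153990742-153990781 (plus strand), chr6:73521013-73521052 (minus strand), chr13:45341164-45341203 (minus strand) and chr12:53006436-53006475 (plus strand). For contrast, POLR2A and NOP56, which rose, and GAPDH, which was not called (log2 -0.04, adjusted p = 0.247), have no such run, at chr17:7484346-7484385 (plus strand), chr20:2652612-2652651 (plus strand) and chr12:6535244-6535283 (plus strand):
POLR2A: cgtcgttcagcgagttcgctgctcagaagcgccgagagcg
NOP56: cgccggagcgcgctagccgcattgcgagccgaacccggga
GAPDH: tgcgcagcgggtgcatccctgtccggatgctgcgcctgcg
A start with a C followed by at least 4 pyrimidines was found in 43 of 63 matched ribosomal protein genes (68.3%) and 13 of 23 translation factors (56.5%), against 5.17% of the 11174 tested genes with a promoter in the table. This definition was chosen after the response was known. Among the 522 genes with such a start that are on neither list, 219 fell (42.0%) and 110 rose (21.1%), with a median of -0.11. Among the 10596 genes with another start 2988 fell (28.2%) and 3025 rose (28.5%), with a median of -0.00. Of ribosomal and translation genes without it, 19 of 30 fell (63.3%), against 49 of 56 with it (87.5%).

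**Figure D2:**
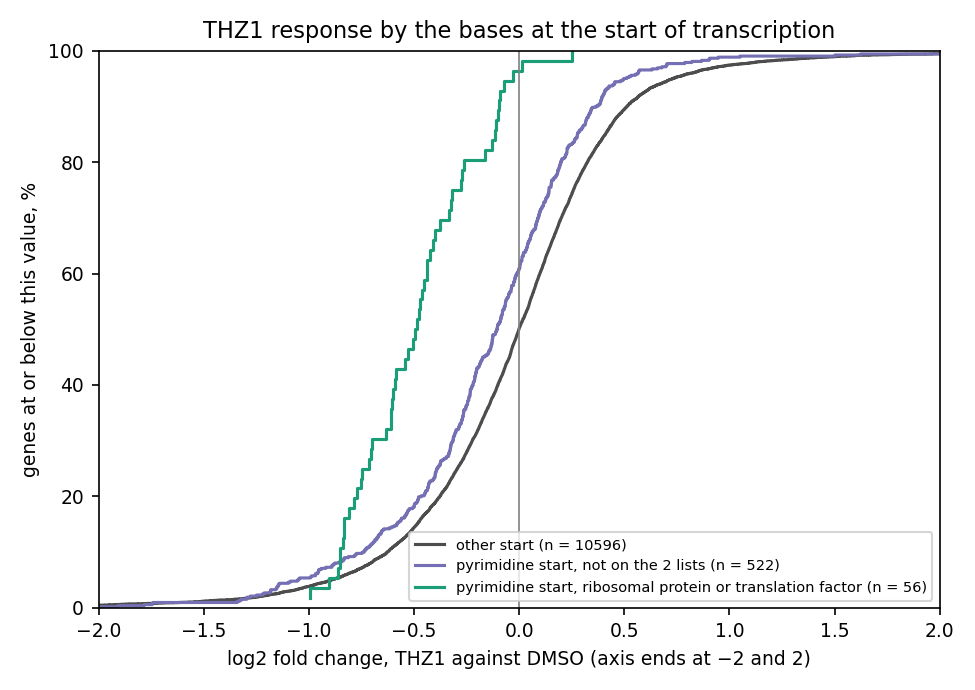
Cumulative share of genes (%) by log2 fold change, THZ1 against DMSO in PC9, for 10596 genes with another start, 522 with a pyrimidine start outside the 2 lists and 56 ribosomal protein or translation factor genes with such a start. The 3 curves lie apart in that order from right to left, with medians of -0.00, -0.11 and -0.49.

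Ribosome biogenesis genes rose in 30 of 33 cases and none was called lower, with a median of 0.45. NOP56, a core protein of the particles that methylate ribosomal RNA, was at 133, 129 and 123 CPM under DMSO and 244, 258 and 256 CPM under THZ1 (log2 0.98 ± 0.04 (SE), adjusted p = 5.55e-22). The nucleolar protein gene LYAR went from 22.6, 23.2 and 19.3 to 46.5, 47.6 and 46.1 CPM (log2 1.11 ± 0.08 (SE), adjusted p = 1.29e-14), and RRN3, the initiation factor of RNA polymerase I, from 63.6, 60.3 and 58.8 to 102, 109 and 101 CPM (log2 0.77). The mitochondrial ribosome, whose proteins come from nuclear genes, rose in 26 of 53 members and fell in 7, with a median of 0.17.

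Most genes of sterol and fatty acid synthesis fell. Enzymes of these pathways are switched on by the SREBP factors when membrane sterol is low. Of 26 cholesterol genes 23 fell, 10 of them at least 2-fold, with a median of -0.77, and TMEM97, named after its value was seen, was the 1 called higher (log2 0.15), though not without DMSO replicate 4. INSIG1, which holds SREBP in the endoplasmic reticulum, was at 150.2, 147 and 132 CPM under DMSO and 55.0, 49.2 and 49.2 CPM under THZ1 (log2 -1.49 ± 0.06 (SE), adjusted p = 4.08e-24). The cyclase LSS, which closes the sterol rings, went from 166, 160.2 and 158 to 64.4, 63.6 and 62.0 CPM (log2 -1.35). Other falls were those of the reductase TM7SF2 (log2 -1.33) and the sterol carrier STARD4 (log2 -1.54).

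Among 17 fatty acid genes 13 fell and 2 rose (ELOVL1 and GPAM, named after their values were seen), with a median of -0.37. SCD, the desaturase that makes oleate, was at 1274, 1254 and 1179 CPM under DMSO and 314, 301 and 303 CPM under THZ1 (log2 -2.01 ± 0.04 (SE), adjusted p = 6.37e-34), with all 3 treated libraries close together. FASN, the fatty acid synthase, went from 1895, 1969 and 1907 to 845, 814 and 838 CPM (log2 -1.21) and the desaturase FADS2 from 695, 699 and 647 to 207, 205 and 203 CPM (log2 -1.73). Sterol export genes, which answer to LXR when sterol is high, fell as well: 7 of 9 were lower and none higher, among them the transporter ABCA1, from 37.4, 35.5 and 37.9 to 12.1, 10.4 and 13.7 CPM (log2 -1.61). Of the promoters of the cholesterol genes 19 could be matched, and 16 held a CCAAT box (84.2%, against 36.3% of all tested). The sterol element TCACNCCAC was in 1 of the 19, that of SREBF2, and of all 124 tested genes with it 28 rose (22.6%) and 41 fell (33.1%).

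NRF2 target genes, which protect cells from oxidants and electrophiles, fell in 24 of 26 cases, none was called higher, and 8 fell at least 2-fold, with a median of -0.78. AKR1C1, a ketosteroid and carbonyl reductase, was at 1270, 1243 and 1173 CPM under DMSO and 547, 531 and 546 CPM under THZ1 (log2 -1.18 ± 0.03 (SE), adjusted p = 5.91e-28). Its relatives AKR1C2 and AKR1C3 fell (log2 -1.20 and -1.06), though the 3 sequences are alike enough that reads may be shared. ME1, malic enzyme, a source of NADPH, went from 210.2, 202 and 183 to 86.96, 81.1 and 84.9 CPM (log2 -1.23 ± 0.05 (SE), adjusted p = 5.08e-23) and the drug exporter ABCC3 from 146, 148 and 163 to 63.0, 72.8 and 67.2 CPM (log2 -1.17). The ferritin heavy chain FTH1, among the 12 most abundant transcripts, fell from 4354, 4454 and 4218 to 2748, 2655 and 2676 CPM (log2 -0.69). ALDH3A1, another abundant detoxifying enzyme of the aldehyde dehydrogenase family, went from 981, 1031 and 958 to 416, 388 and 377 CPM (log2 -1.33). The antioxidant element TGACNNNGC was in 5 of 19 matched promoters (26.3%) and in 15.1% of all tested, a search added after the response was known. Of all 1682 tested genes with it 504 rose and 470 fell.

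Genes of amino acid supply and of the ATF4 stress programme, which makes up for lost amino acids, fell in 34 of 40 cases and none rose, with a median of -0.52. Besides NUPR1, the mitochondrial folate enzyme ALDH1L2 went from 4.19, 5.07 and 4.92 to 0.946, 0.522 and 0.314 CPM (log2 -2.99 ± 0.29 (SE), adjusted p = 1.14e-11) and CHAC1, which degrades glutathione, from 8.38, 8.29 and 7.47 to 2.24, 2.44 and 1.57 CPM (log2 -1.96 ± 0.17 (SE), adjusted p = 5.6e-13). DDIT3, a factor that promotes death under lasting stress, was raised in DMSO replicate 4 (10.1, 11.2 and 20.1 CPM under DMSO, 3.53, 2.87 and 3.92 CPM under THZ1) and fell with a log2 change of -1.99 with it and -1.62 without it. The composite site of ATF4 and its CEBP partners, TGATGNAA on either strand, was in 8 of 33 matched promoters of this list (24.2%) and in 1.65% of all tested. Of these 8 members 5 fell, and SLC3A2, SLC7A1 and NARS1 were not called. It is shown for CHAC1 and for 2 members picked because they carry it, ASNS and AARS1 (asparagine synthetase and alanyl-tRNA synthetase, log2 -1.74 and -0.73), in stretches of 90 bases from RefSeq on GRCh38.p14 with the site in capitals, ending just before the start for ASNS and 136 bases before it for CHAC1 and AARS1, at chr7:97872409-97872498 (minus strand), chr15:40953246-40953335 (plus strand) and chr16:70289642-70289731 (minus strand):
ASNS: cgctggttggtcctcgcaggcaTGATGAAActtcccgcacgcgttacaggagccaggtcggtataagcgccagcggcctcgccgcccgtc
CHAC1: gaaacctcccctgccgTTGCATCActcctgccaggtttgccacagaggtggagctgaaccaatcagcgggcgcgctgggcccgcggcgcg
AARS1: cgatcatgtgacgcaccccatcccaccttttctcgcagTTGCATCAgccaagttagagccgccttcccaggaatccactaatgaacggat
Over the 184 tested genes with this site in the window, 57 fell (31.0%) and 42 rose (22.8%), against 29.1 and 28.1% of the 11174. The genes of the 3 regulators themselves, looked up after the lists were seen, fell: SREBF2 (log2 -1.18), ATF4 (log2 -0.90) and NFE2L2, which encodes NRF2 (log2 -0.32) (edgeR adjusted p = 2.58e-27, 1.89e-20 and 4.93e-06). SREBF2 is itself on the cholesterol list, so its fall is among those counted there. Whether these 3 falls bear on the lists was not tested.

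**Figure D3:**
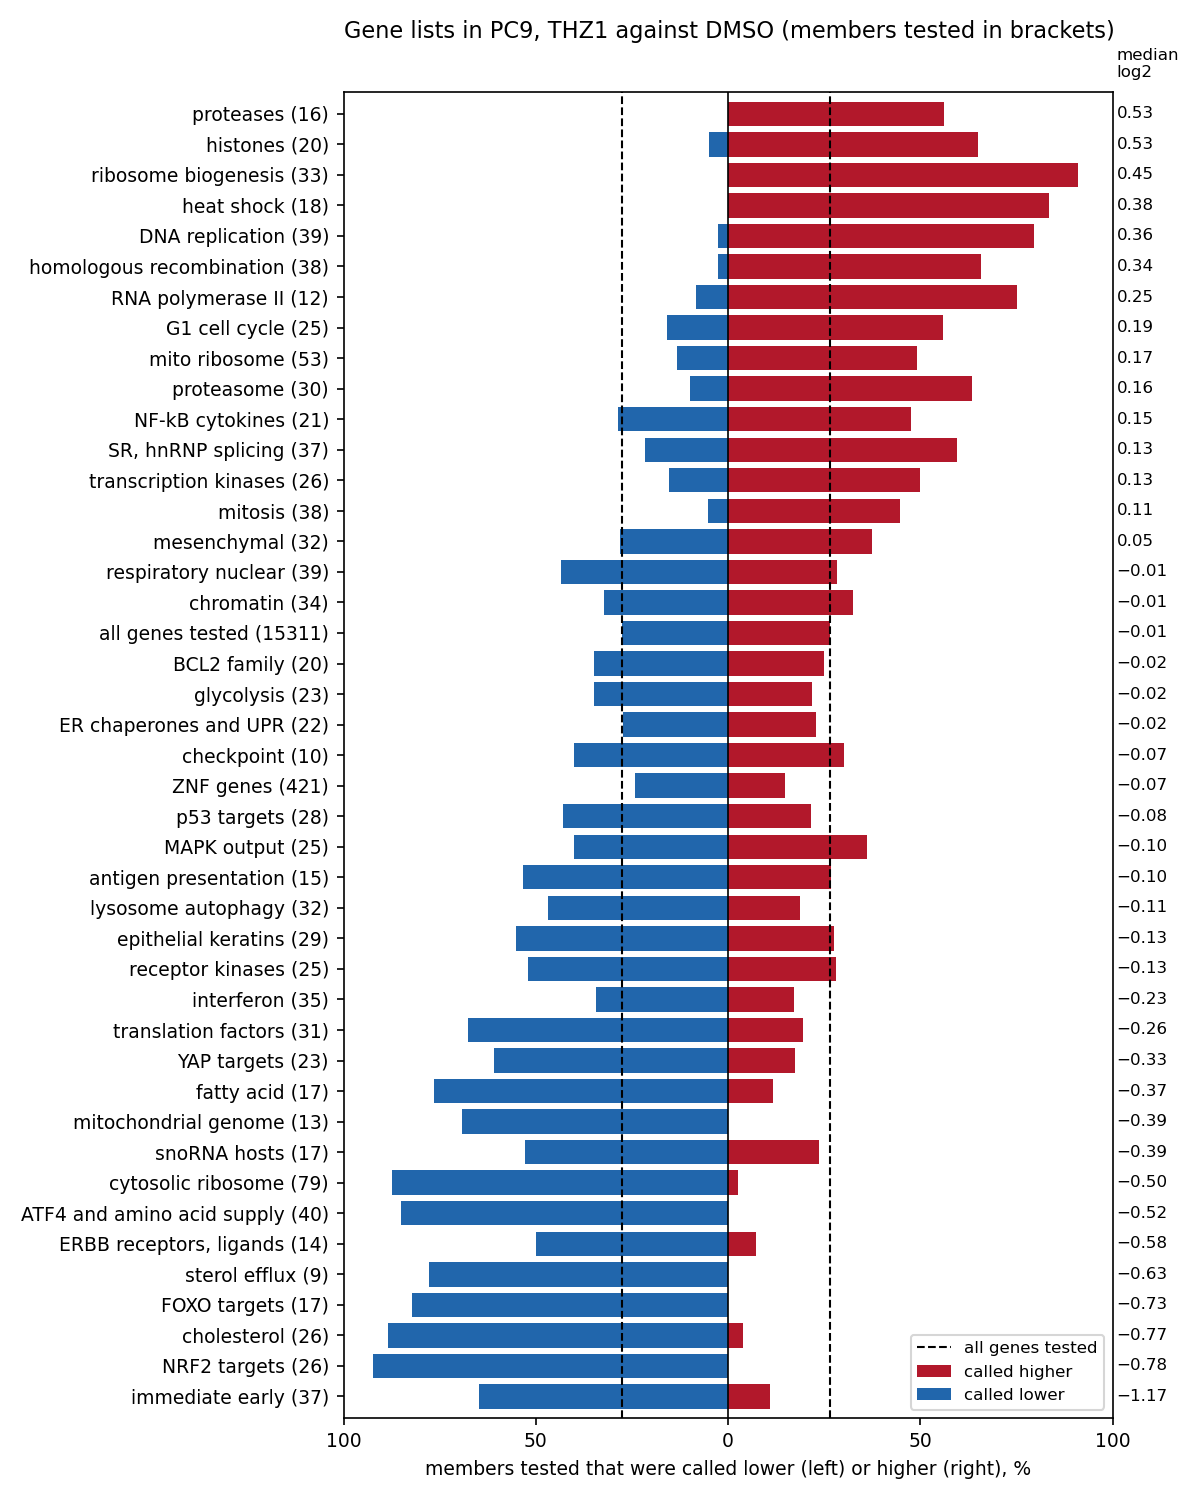
Share of each gene list's tested members (%, number tested in brackets) that edgeR called higher (right) or lower (left) in PC9 under THZ1, ordered by the median log2 change printed at the right; dashed lines mark 26.4 and 27.7%, the shares over all 15311 genes. Immediate-early, NRF2, cholesterol and FOXO genes lie at the bottom, and proteases, histones and ribosome biogenesis at the top.

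Cytosolic chaperone and proteasome genes mostly rose. Of 18 cytosolic heat shock genes 15 rose and none fell, with a median of 0.38. HSPH1, a nucleotide exchange factor for the HSP70 chaperones, was at 89.4, 88.1 and 95.1 CPM under DMSO and 194, 196 and 202 CPM under THZ1 (log2 1.12 ± 0.04 (SE), adjusted p = 1.88e-24). The near-identical HSPA1A and HSPA1B, which share reads, rose (log2 0.66 and 0.58), and the abundant HSP90AA1 (log2 0.34). The proteasome rose in 19 of 30 subunits and fell in 3, led by PSMD2, a scaffold of its cap, from 486, 496 and 486 to 888, 895 and 896 CPM (log2 0.87). In the endoplasmic reticulum 5 of 22 genes rose and 6 fell, with a median of -0.02, shares near those of all genes. Among the rises, named after their values were seen, were CRELD2 (log2 0.42) and the chaperone HYOU1 (log2 0.27). XBP1, the factor spliced during the unfolded protein response, fell from 40.3, 38.6 and 43.2 to 15.9, 14.4 and 14.2 CPM (log2 -1.46 ± 0.08 (SE), adjusted p = 1.72e-19), HERPUD1, of the degradation pathway (log2 -1.36) and the chaperone HSPA5 (log2 -0.63), the last 2 being highest in DMSO replicate 4 and falling (log2 -1.13 and -0.54) without it.

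Genes that copy and repair DNA rose by modest amounts. Of 39 replication genes 31 rose and 1, the ligase LIG1, named after its value was seen, fell, with a median of 0.36 and no change of 2-fold. ORC1, of the origin recognition complex, was at 29.7, 30.3 and 30.2 CPM under DMSO and 55.3, 53.2 and 55.8 CPM under THZ1 (log2 0.87 ± 0.06 (SE), adjusted p = 9.85e-15), and CLSPN, which signals stalled forks, at 44.5, 44.0 and 49.0 and 86.3, 83.9 and 80.6 CPM (log2 0.87 ± 0.06 (SE), adjusted p = 3.24e-15). Of 38 homologous recombination and Fanconi genes, a group often described as dependent on CDK12, 25 rose and 1 fell, with a median of 0.34. RAD54L, a motor of strand exchange, went from 38.5, 40.8 and 39.2 to 72.6, 67.7 and 74.0 CPM (log2 0.85 ± 0.06 (SE), adjusted p = 2.88e-15), POLQ, of end joining, rose (log2 0.64) and EXO1, a resecting nuclease (log2 0.62). The member that fell was ATM, the kinase that senses breaks, named after its value was seen (log2 -0.48, adjusted p = 6.11e-08). An E2F site, TTTGGCGC or TTTCCCGC on either strand, was in 17.6% (first form) and 29.4% (second form) of 34 matched replication promoters, against 1.02 and 2.60% of all tested. Of all 403 tested genes with either form 155 rose (38.5%) and 89 fell (22.1%).

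The cell cycle lists moved less. Of 38 mitosis genes 17 rose and 2 fell, with a median of 0.11. The rises included the kinase AURKA (log2 0.35) and FOXM1, the factor that drives many of them (log2 0.32). Of 25 G1 genes 14 rose and 4 fell. CCNE1, the cyclin of S phase entry, rose from 11.03, 11.8 and 9.32 to 22.3, 19.0 and 17.3 CPM (log2 0.86), and CDKN2B, an inhibitor of the G1 kinases, fell from 48.5, 47.9 and 53.6 to 11.4, 14.9 and 11.5 CPM (log2 -1.99 ± 0.07 (SE), adjusted p = 1.88e-24). Of 28 p53 targets 6 rose and 12 fell, among them TP53INP1, of autophagy and death, from 7.61, 6.003 and 7.04 to 1.98, 2.26 and 1.57 CPM (log2 -1.83 ± 0.18 (SE), adjusted p = 1.7e-11), and the kinase PLK2, which was highest in DMSO replicate 4 (579, 555 and 866 CPM under DMSO, 303, 299.8 and 299 CPM under THZ1, log2 -1.15, -0.92 without that library). Without DMSO replicate 4 the p53 list had 6 members higher and 9 lower. On a list of the BCL2 family and other apoptosis regulators 5 of 20 rose and 7 fell: the death promoter BIK rose (log2 0.96) and the inhibitor of apoptosis BIRC3 (log2 0.91), while the death promoters BBC3, PMAIP1 and BOK fell (log2 -0.82, -0.70 and -0.56).

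Among adhesion and matrix genes, LAMA3 and LAMB3, which encode laminin chains of the epithelial basement membrane, rose. LAMA3 was at 72.8, 68.4 and 67.5 CPM under DMSO and 191, 197 and 195 CPM under THZ1 (log2 1.48 ± 0.04 (SE), adjusted p = 8.87e-29), and LAMB3 at 91.1, 93.5 and 103.3 and 255, 266 and 269 CPM (log2 1.46). The collagen receptor subunit ITGA2 rose from 62.7, 59.8 and 61.4 to 145, 152 and 163 CPM (log2 1.32), and SNAI2, a repressor of epithelial genes, fell from 16.3, 15.3 and 29.9 to 7.31, 4.87 and 6.12 CPM (log2 -1.74, -1.37 without DMSO replicate 4). Over the mesenchymal and matrix list as a whole 12 of 32 rose and 9 fell. Of 16 matrix protease, plasminogen and hyaluronan genes 9 rose and none fell, including the hyaluronan synthase HAS3, from 2.31, 2.28 and 2.99 to 10.9, 9.22 and 10.7 CPM (log2 2.02 ± 0.18 (SE), adjusted p = 1.07e-12), and the plasminogen activator PLAT (log2 0.91). Keratin and junction genes fell in 16 of 29 cases and rose in 8. KRT6A rose from 32.4, 32.0 and 46.8 to 97.8, 90.2 and 92.1 CPM (log2 1.34), and CLDN1 and CLDN3, of tight junctions, fell (log2 -0.80 and -0.77). KRT17 was at 74.1, 64.2 and 223 CPM under DMSO and 39.0, 34.4 and 37.2 CPM under THZ1. It fell with a log2 change of -1.70 with and -0.91 without DMSO replicate 4, and was not called when the 6 libraries were fitted alone. Of 23 YAP targets 14 fell and 4 rose. CCN2, the best known of them, was called with all libraries and not without that one (log2 -0.66 and -0.45, adjusted p = 0.0262 and 0.114), nor without any one THZ1 library.

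Inflammatory genes did not move as a block. Of 21 cytokine and NF-kB feedback genes 10 rose and 6 fell. The falls included the chemokine CXCL2, at 2.31, 2.54 and 13.8 CPM under DMSO and 0.43, 1.22 and 1.33 CPM under THZ1 (log2 -2.61, -1.27 without DMSO replicate 4), and the cytokine IL6, at 2.14, 2.11 and 10.4 CPM under DMSO and 1.03, 0.696 and 1.10 CPM under THZ1 (log2 -2.34, -1.16 without DMSO replicate 4). Neither was called when the 6 libraries were fitted alone, nor CXCL2 without THZ1 replicate 2, nor IL6 without any one THZ1 library. The feedback inhibitor TNFAIP3 rose from 8.89, 7.61 and 12.8 to 28.6, 31.2 and 29.7 CPM (log2 1.61 ± 0.21 (SE), adjusted p = 4.47e-05), with DMSO replicate 4 the highest vehicle library. Of 35 interferon-stimulated genes 6 rose and 12 fell, ISG15 (log2 0.67) and the virus tether BST2 (log2 -2.24), both at low levels. In antigen presentation 8 of 15 fell and 4 rose, the immunoproteasome subunit PSMB10 from 29.5, 28.8 and 26.9 to 14.02, 14.3 and 14.9 CPM (log2 -0.98). Both ligands of the checkpoint receptor PD1 rose from low levels, CD274 from 2.14, 2.11 and 3.43 to 6.62, 8.35 and 8.32 CPM (log2 1.60 ± 0.23 (SE), adjusted p = 1.27e-07) and PDCD1LG2 from 1.197, 1.01 and 0.44 to 3.96, 3.05 and 2.98 CPM (log2 1.89 ± 0.32 (SE), adjusted p = 3.25e-06), while VTCN1, another inhibitory ligand, fell (log2 -1.42).

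Transcripts of the mitochondrial genome, which are made by a separate polymerase, fell in 9 of 13 cases and none rose, with a median of -0.39. MT-CO3 was at 2503, 2394 and 3052 CPM under DMSO and 1828, 1802 and 1652 CPM under THZ1 (log2 -0.59 ± 0.10 (SE), adjusted p = 0.00056), highest in DMSO replicate 4, and without that library its log2 change was -0.48. Without it 7 fell, with a median of -0.31. Nuclear genes of the respiratory chain went both ways, 11 of 39 higher and 17 lower. Lysosome and autophagy genes fell in 15 of 32 cases and rose in 6, the cathepsin CTSD from 1082, 1152 and 1080 to 645, 648 and 645 CPM (log2 -0.77) and the autophagy protein GABARAPL1 (log2 -0.84). Glycolysis split 5 to 8 of 23, with ALDOC lower (-1.18) and HK2, which traps glucose, higher (0.63). Splicing factors of the SR and hnRNP families rose in 22 of 37 cases and fell in 8, among them the abundant HNRNPA1, from 986, 991 and 972 to 572, 579 and 567 CPM (log2 -0.78). Chromatin regulators split 11 to 11 of 34. Of 421 expressed ZNF zinc finger genes 62 rose (14.7%) and 102 fell (24.2%), both shares under those of all genes. One of them, ZNF550, was at 1.54, 2.03 and 2.199 CPM under DMSO and at 0 in all 3 THZ1 libraries. It was called by edgeR (adjusted p = 0.000347) and not by DESeq2.

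**Figure D4:**
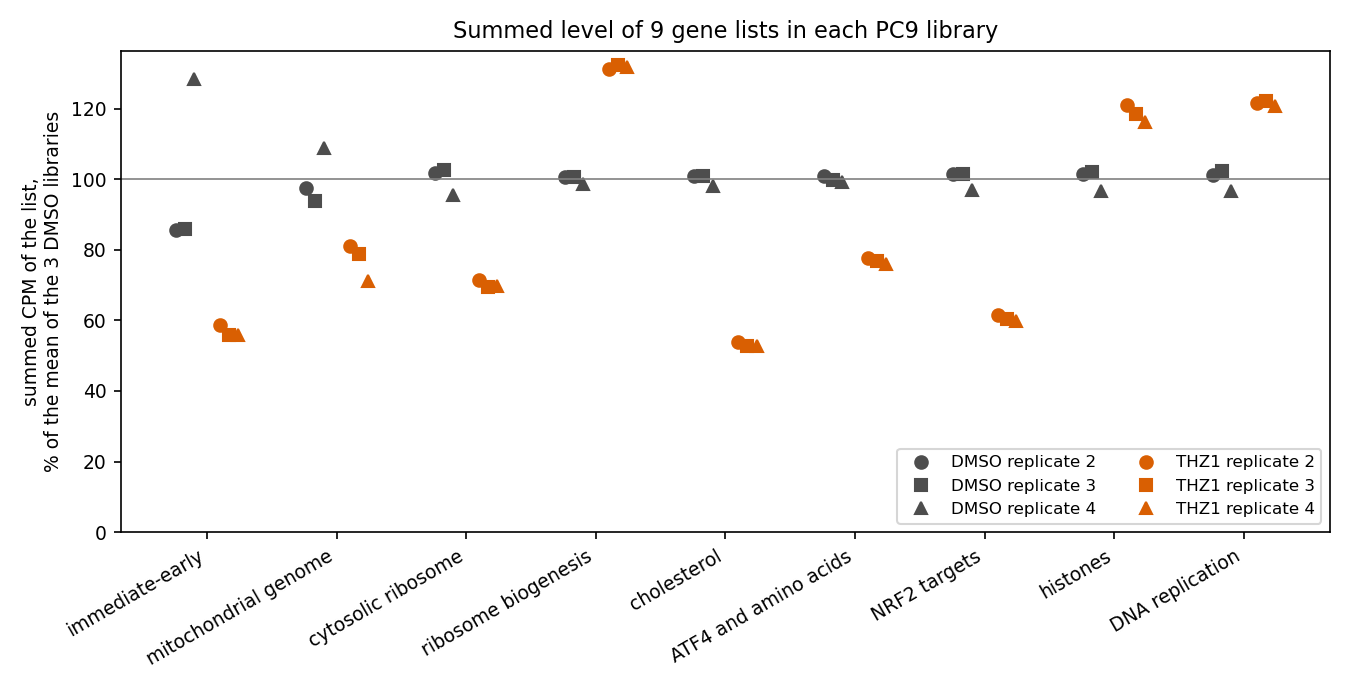
Summed CPM of 9 gene lists in each of the 6 PC9 libraries, as % of the mean of the 3 DMSO libraries (axis from 0); symbols are libraries. The THZ1 libraries lie together, below the vehicle for immediate-early, mitochondrial, cytosolic ribosome, cholesterol, ATF4 and NRF2 genes and above it for ribosome biogenesis, histones and DNA replication, and DMSO replicate 4 is the highest vehicle library for immediate-early and mitochondrial genes.

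Gene length and calls were compared in classes. When protein-coding genes were sorted by span into 5 classes of equal size, the share called lower was 32.6% among the shortest, 27.0 to 28.6% in the 3 middle classes and 32.9% among the longest. The share called higher was 26.8%, 29.5 to 30.9% and 24.0%. Rises of at least 2-fold numbered 97 among the shortest and 36 to 69 in the other classes. Falls of at least 2-fold numbered 122 among the shortest and 77 to 107 in the other classes, so large changes in both directions were most frequent there. By transcript length the share called lower was 29.1% in the shortest and 33.2% in the longest class, and by exon number 28.6% in the class with the fewest and 34.0% in that with the most. The medians of the span classes lay between -0.04 and 0.02. Of 441 coding genes with 1 exon 103 rose and 133 fell. Of 1140 long non-coding genes 151 were called higher and 168 lower, at a median level of 1.06 on the log2 CPM scale against 4.87 for coding genes.

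THZ1 effects in PC9 were then set against those in the other lines by the test of the difference itself, fitted on 12 libraries per pair of lines. Against RT112 at the same dose 6294 of 15540 genes (40.5%) differed, 3017 (19.4%) with the PC9 effect higher and 3277 (21.1%) with it lower, and 1200 (7.72%) by at least 2-fold. Against A549 it was 5321 of 15502 genes (34.3%, with 18.1% higher, 16.2% lower and 5.69% at least 2-fold apart), and against H3122 4874 of 15371 (31.7%, with 15.9, 15.8 and 4.55%). Dose and line change together for A549 and H3122 and cannot be told apart there.

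For most NRF2 targets the effect in PC9 was lower than in each of the 3 lines. The PC9 effect was lower for 22 of 26 members against RT112, 24 against A549 and 20 against H3122, and higher for 0, 1 and 0 (edgeR, adjusted p under 0.05 for the difference; 0 against RT112 and H3122 at an unadjusted p too). The list's median was -0.79 in PC9, 0.22 in RT112, 0.01 in A549 and -0.14 in H3122. AKR1C1 fell (log2 -0.48) in RT112 (difference -0.71 ± 0.05 (SE), adjusted p = 7.24e-12), and ABCC3, which fell in PC9, had a log2 change of 0.26 there (difference -1.44 ± 0.07 (SE), adjusted p = 6.21e-15). Cholesterol genes did likewise, with the PC9 effect lower for 22, 23 and 21 of 26 members against RT112, A549 and H3122 and medians of -0.78, -0.13, 0.47 and -0.11 in PC9 and those lines. LSS changed (log2 -0.31) in RT112 (difference -1.05 ± 0.06 (SE), adjusted p = 1.49e-14), and INSIG1 (log2 -0.77) (difference -0.72 ± 0.20 (SE), adjusted p = 0.0193), the last not called without PC9 THZ1 replicate 4 (adjusted p = 0.0502). In H3122 INSIG1 changed (log2 -1.51), and the difference from PC9 of 0.03 ± 0.08 (SE), adjusted p = 0.853 was not called.

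Ribosome biogenesis rose more in PC9 than in the other lines, with 32, 24 and 18 of 33 members higher against RT112, A549 and H3122 and none lower (at an unadjusted p under 0.05, 1 was lower against H3122). Its median was 0.44 in PC9 and -0.26, 0.15 and 0.21 in those lines. LYAR changed (log2 -0.44) in RT112 (difference 1.54 ± 0.09 (SE), adjusted p = 1.79e-14) and NOP56 (log2 0.05) (difference 0.92 ± 0.06 (SE), adjusted p = 2.21e-13). DNA replication gave 24, 20 and 33 of 39 higher in PC9, with medians of 0.35 against -0.00, 0.13 and -0.09, and homologous recombination 20, 12 and 21 of 38, with RAD54L at 0.03 in RT112 (difference 0.82 ± 0.08 (SE), adjusted p = 3.9e-09). For CLSPN the difference from RT112 was not called (0.06 ± 0.15 (SE), adjusted p = 0.795).

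For amino acid supply PC9 lay between the other lines. These genes fell further in RT112 and A549, with the PC9 effect higher for 20 and 32 of 40 members and lower for 2 and 4, but less in H3122, with 4 higher and 22 lower. The medians were -0.53 in PC9, -0.92 in RT112, -1.26 in A549 and -0.20 in H3122. Cytosolic ribosomal proteins had medians below 0 in all 4 lines, at -0.51, -0.48, -0.31 and -0.39 in PC9, RT112, A549 and H3122. The PC9 value is that of the fit with RT112 and was -0.48 in the fit with A549. Against RT112, A549 and H3122 the PC9 effect was lower for 22, 50 and 35 of 79 members and higher for 16, 3 and 9. The list's median difference from RT112 was -0.04, and 21.1% of all genes were lower and 19.4% higher against that line. Histones had a median of 0.47 in PC9, between 1.47 in RT112 and the lower 0.21 in A549 and 0.15 in H3122. H2BC12 rose (log2 2.52) in RT112 (difference -0.80 ± 0.08 (SE), adjusted p = 2.47e-09). POLR2A rose most in PC9, with a log2 change of 0.79 in RT112, 0.96 in A549 and 0.17 in H3122 (differences from PC9 of 0.30 ± 0.05 (SE), adjusted p = 4.21e-06; 0.15 ± 0.05 (SE), adjusted p = 0.014; and 0.93 ± 0.08 (SE), adjusted p = 5.43e-07). The difference from A549 was lost in 7 of the 12 fits that left out 1 library. EGR1 fell (log2 -0.79) in RT112 (difference -1.62 ± 0.38 (SE), adjusted p = 0.00848) and (log2 -2.77) in A549, where the difference was not called (adjusted p = 0.488).

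Single genes with the widest differences mostly had under 1 CPM in 1 of the lines, 6 of 10 against RT112, 9 of 10 against A549 and 8 of 10 against H3122, and no size is given for those. The rest reached 1 CPM in at least 1 group of each line, but ID2 under DMSO and NPR1 and H19 under THZ1 were below it in PC9, so the sizes of these 3 differences rest on few counts. ALPP, the placental alkaline phosphatase, fell in PC9 from 189 ± 6.81 to 84.7 ± 2.19 CPM and rose in RT112 from 18.5 ± 0.811 to 150.1 ± 5.40 CPM (mean ± SD, n = 3 each). The test of that difference, from the edgeR fit across all genes, gave log2 -4.17 ± 0.07 (SE), adjusted p = 7.63e-27. INHBB, a subunit of activin and inhibin, fell slightly in PC9 from 177 ± 2.997 to 131 ± 4.85 CPM and rose in RT112 from 1.15 ± 0.27 to 24.2 ± 2.37 CPM (difference -4.80 ± 0.14 (SE), adjusted p = 5.41e-21). HAS3 had the opposite order, rising in PC9 and falling in RT112 from 90.8 ± 14.2 to 29.6 ± 2.76 CPM (difference 3.63 ± 0.23 (SE), adjusted p = 8.69e-09). ID2 rose in both, from far below in PC9 and from 36.0 ± 6.20 to 48.3 ± 1.79 CPM in RT112 (difference 3.37 ± 0.33 (SE), adjusted p = 6.82e-09). Against A549 the natriuretic peptide receptor NPR1 fell in PC9 from 1.98 ± 0.47 to 0.138 ± 0.0991 CPM and rose in A549 (difference -5.03 ± 0.51 (SE), adjusted p = 1.02e-09). Against H3122 the imprinted RNA H19 fell in PC9 from 1.05 ± 0.241 to 0.0797 ± 0.0773 CPM (difference -3.77 ± 0.55 (SE), adjusted p = 1.94e-06), and the cadherin gene CDH5 rose in PC9 from 2.18 ± 0.159 to 8.15 ± 0.429 CPM and fell in H3122 (difference 2.93 ± 0.23 (SE), adjusted p = 8.73e-12).

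**Figure D5:**
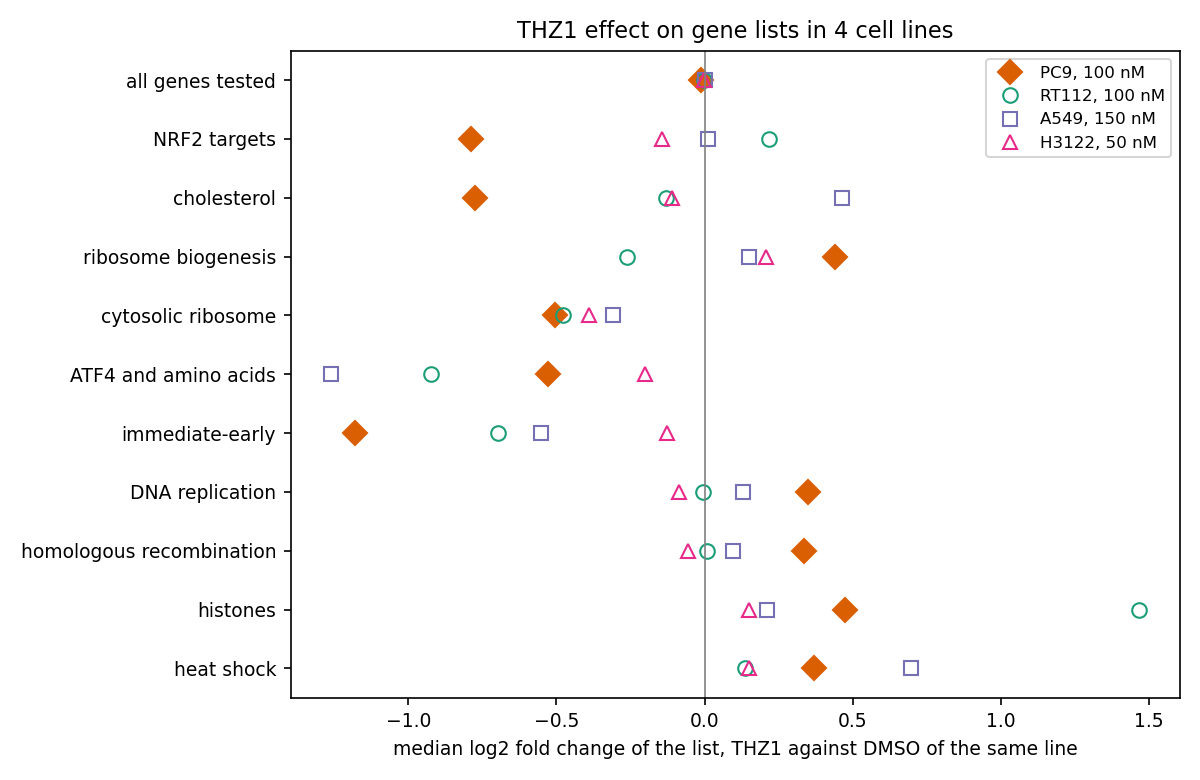
Median log2 fold change (THZ1 against DMSO of the same line) of 10 gene lists and of all genes tested, in PC9 (filled), RT112, A549 and H3122, at the doses in the key; PC9 values are those of the fit with RT112. PC9 has the lowest median of the 4 for immediate-early genes, NRF2 targets, cholesterol and the cytosolic ribosome, at -1.18, -0.79, -0.78 and -0.51. It has the highest for ribosome biogenesis, DNA replication and homologous recombination, at 0.44, 0.35 and 0.33. The immediate-early median was -0.70 in RT112, and in the fit of PC9 libraries without DMSO replicate 4 it was -0.71.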

How the data were processed

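RNA was sequenced from cell lines, and the authors deposited 1 table of expected counts per gene for all libraries, made with RSEM 1.2.12 and Bowtie2 2.2.1 on hg19, per the submitters' processing notes; the sources used here do not name the gene annotation. RSEM divides reads that match several genes, and 10.3 to 11.8% of the values of these 6 libraries were not whole. Columns were assigned to groups by the sample titles. Expected counts were rounded and fitted in edgeR 4.0.16 (R 4.3.3): the 15 PC9 libraries together, TMM scaling, filterByExpr, robust quasi-likelihood, the THZ1 minus DMSO contrast, Benjamini-Hochberg adjustment over all 15311 genes tested. Differences between lines were fitted on the 12 THZ1 and DMSO libraries of each pair of lines. CPM values use TMM library sizes. The code was checked on simulated counts.

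Of 53893 gene IDs 47357 were given a symbol through GENCODE 29; the 6536 without one hold 1.16% of counts. Promoters are RefSeq's on GRCh38.p14, matched by symbol for 11174 tested genes; no coordinate of the deposited table was used. Members and lists were chosen with earlier results of these data known. Named genes are the 12 largest rises and 12 largest falls that were called, did not overlap and reached 5 CPM, up to 5 called members of each list by size of change, the drug targets, the widest differences between lines and the 12 most abundant genes; some of them are not reported here. Same-numbered libraries were not treated as pairs, and the labels do not say whether they are. Correlations of their deviations ran from -0.0305 to 0.0132. Taken over all tested genes, these values cannot show whether such libraries were handled together. Alternatives were other scalings, filters, DESeq2 1.42.0, fewer libraries and a replicate block.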

Additional observations from a re-analysis of the deposited data

Results flagged for a closer look

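The effect of THZ1 differed between PC9 and another line, by the interaction test in edgeR, for the following named genes with a mean of at least 1 CPM in 1 or both groups of each line. ID2 under DMSO, and NPR1 and H19 under THZ1, were below 1 CPM in PC9. Values are log2 differences, the PC9 effect minus the effect in the other line. Against RT112, at the same dose, they were -4.80 for INHBB, -4.17 for ALPP, 3.63 for HAS3 and 3.37 for ID2 among the widest. The members of gene lists named above gave -0.71 for AKR1C1, -1.44 for ABCC3, -0.72 for INSIG1, -1.05 for LSS, 0.92 for NOP56, 1.54 for LYAR, 0.82 for RAD54L, -1.62 for EGR1, 0.30 for POLR2A and -0.80 for H2BC12. Against A549 the difference was -5.03 for NPR1, and against H3122 -3.77 for H19 and 2.93 for CDH5. No group had more than 3 libraries, too few to test for a single library out of line.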

How the results depend on the processing

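The number of genes called in PC9 ran from 7483 to 7819 when each of the 6 libraries was left out in turn, and was 7172 with DESeq2, 8121 with only the 6 libraries and 7959 with a replicate block on them. Which direction held more calls depended on the scaling. The main fit called 4040 genes higher and 4243 lower, against 4339 and 3981 with DESeq2 size factors in edgeR. With library totals only the counts were 4870 and 3562, and with the DESeq2 test 3725 and 3447. Called differences between lines ran from 5828 to 6350 against RT112, 4756 to 5356 against A549 and 4365 to 4853 against H3122 with each of 12 libraries left out. They were 5222, 4263 and 3819 with DESeq2, and 6172, 5120 and 4031 with all 5 arms of both lines in the fit. With a replicate block they were 5885, 4618 and 4249. The block moved no list's count by over 1.5 times, but CXCL8, RHOV, DUSP1, MYC, TRIB1, KRT17, MT-CO3, MT-CO1 and 8 other named genes lost their calls under it. Whether same-numbered libraries belong together is not known. Of 4 lists whose counts moved further under other settings, members called lower numbered 10 (library totals only), 11 (DESeq2) and 11 to 18 (a library left out) for nuclear respiratory genes, 5 (library totals only) and 6 to 8 for antigen presentation, 3 (only the 6 libraries) and 4 to 6 for cytokines, and 3 (library totals only), 4 (DESeq2) and 5 to 7 for splicing factors. Glycolysis members called higher numbered 8 with library totals only. Taken over every list of at least 5 genes and every setting, list medians moved beyond the SD between libraries in 98 cases and stayed within it in 500. The causes were not tested. No named gene that was called in the main fit changed direction under any of these settings, and genes not called were left out of this check. Without DMSO replicate 4 the calls of RHOV, GTF2H1, MT-ATP8, BTG2, DUSP5, EREG, FGF2, CCN2, ZNF396, ZNF630, VIL1 and MT-ND4 were lost. CXCL2 lost its call without THZ1 replicate 2, and RHOV, DUSP5, IL6 and CCN2 without any one THZ1 library. With only the 6 libraries CXCL8, CXCL2, IL6, KRT17, PMAIP1 and 8 others lost theirs, and with DESeq2 NRG1, EREG, FGF2, ACTA2, ZNF550, ZNF396, ZNF630 and 5 others. With 3 libraries a group, low transcripts limit what can be seen: fold changes of genes under 1 CPM rest on few counts.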

Other observations

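The table holds a pair of gene IDs with counts in only 1 of the groups each. SSX2, a cancer-testis gene, had 33, 34 and 37 expected counts in DMSO replicates 2, 3 and 4 and 0 in all 3 THZ1 libraries. Another gene ID without a symbol, ENSG00000157950.10, had 0 in all 3 DMSO libraries and 28, 27 and 29 in the THZ1 libraries. The sums over the 3 libraries were 104 and 84. Both passed the filter and gave the widest fitted changes of the table in either direction, so no fold is given for them, and they were picked after their values were seen. Whether reads moved between the IDs was not tested.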
